A study of Mus musculus with 6 samples.

Results

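The matrix metalloproteinases (MMPs), the ADAMTS proteinases, the ADAMTS-like proteins and the tissue inhibitors of metalloproteinases (TIMPs) were examined in fibroadipogenic progenitors (FAPs) of mice. The members were the symbols Mmp, Adamts, Adamtsl or Timp followed by a number and at most 1 letter, and there were 50 of them among the 33276 genes of the count table. They comprised 22 MMPs, 19 ADAMTS, 5 ADAMTS-like genes and 4 TIMPs. Mmp8, the neutrophil collagenase, was left out and counted as a neutrophil marker.

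FAPs are mesenchymal cells of the muscle interstitium that can form fibroblasts and adipocytes. RNA-seq read counts came from 3 libraries of circulating FAPs, taken from peripheral blood, and from 3 libraries of FAPs taken from muscle. All 6 libraries came from mice with middle cerebral artery occlusion (MCAO), a stroke model in which a brain artery is blocked, so no comparison with mice without the occlusion was made. The background strain, age, sex, time after occlusion, sorting markers and the number of mice behind a library were not given in the sources used here. By its title, the series compares the transcripts of FAPs in the circulation and FAPs resident in muscle.

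MMPs are zinc proteinases that are made as inactive precursors, are secreted or held at the cell surface, and cut collagens, gelatin and other matrix proteins. ADAMTS proteinases are secreted, and their thrombospondin repeats hold them to the matrix, where different members trim proteoglycans, procollagens or microfibril proteins. The ADAMTS-like proteins have the same repeats without the catalytic domain. TIMPs bind the active site of MMPs and block it, and Timp3 also inhibits several ADAMTS enzymes. In muscle, FAPs and fibroblasts are a main source of matrix and of the enzymes that turn it over.

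Circulating libraries held 5522193 to 13813329 counts and muscle libraries 17532558 to 23424039, of which 18S ribosomal RNA took 42.9% to 60.1% in circulating and 27.8% to 32.3% in muscle libraries. The summed level of 9 FAP markers was 10752 to 15378 CPM (counts scaled to library depth, with the trimmed mean of M values, TMM) in circulating and 24105 to 30613 CPM in muscle FAPs. All 9 were detected in every library, and the defining FAP marker Pdgfra had 221, 191 and 193 CPM in circulating FAPs and 849, 456 and 526 CPM in muscle FAPs. Dcn, Col3a1 and Col1a1, which return below as matrix substrates, made up most of the sum. Like Lum, they were lower in every circulating library than in any muscle library. The markers Dpp4 and Pi16 went the other way in most libraries, with Dpp4 at 177, 180.5 and 69.1 CPM in circulating FAPs, against 28.9, 37 and 23 CPM in muscle FAPs. Pi16 was at 328, 1180.2 and 962 CPM in circulating FAPs, against 422, 254 and 217 CPM in muscle FAPs. The markers Cd34 (784 to 980 CPM in circulating, 865 to 1366 CPM in muscle FAPs) and Ly6a (535 to 1760 and 973 to 1808 CPM) overlapped between the groups. The summed level of 10 neutrophil markers was 18.6 to 123 CPM in circulating FAPs, against 8.48 to 12.4 CPM in muscle FAPs, and that of 10 monocyte and macrophage markers was 48.3 to 277 CPM in circulating FAPs, against 15 to 28.3 CPM in muscle FAPs. The neutrophil markers Ngp and Cxcr2 and the macrophage marker C1qa had 0 counts in at least 1 library. A few genes in single circulating libraries carried much of these sums. They were S100a9 (69.8 CPM) in replicate 1, C1qa (59 CPM) and C1qb (92.9 CPM) in replicate 2, and S100a8 (61.4 CPM) and Camp (47.7 CPM) in replicate 3. S100a9, Ltf, Csf3r, Csf1r, Adgre1 and Ccr2 were higher in every circulating library than in any muscle library. The other markers of these lists overlapped. Reads on silent sensory receptor genes set a background per kilobase of exon of 0.424 to 0.529 CPM in circulating and 0.217 to 0.284 CPM in muscle libraries. Depth, the leukocyte markers and this background moved with the group, and their part in the differences below was not tested. In these bulk libraries, fewer cells expressing a gene and less RNA per cell cannot be told apart.

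No member passed the test over all genes. Of the 50 members 48 passed the filter on low counts, and with edgeR's quasi-likelihood test and Benjamini-Hochberg adjustment 0 were lower and 0 were higher in circulating FAPs at an adjusted p under 0.05. Over all 20248 genes tested, 0.104% were lower and 0.00494% higher by that rule. At an unadjusted p under 0.05, 5 members were lower and 4 higher, where 9.64% of all genes were lower and 9.71% higher. With DESeq2, 3 members (Adamts1, Adamts4 and Adamtsl2) were lower and 0 higher, where 7.08% of the genes with an adjusted p were lower and 1.34% higher. All 3 were among the 20 members with a mean of at least 20 CPM. Of all 4736 genes of that abundance, 11.4% were lower with DESeq2, so the all-gene share is a low background for these 3. None of these 3 passed with DESeq2 without circulating replicate 2 or without muscle replicate 3. DESeq2 gave no adjusted p for 9 members. With DESeq2 size factors from abundant genes, 0 members were lower and 6 higher, where the background was 1.53% lower and 11.8% higher. Without the filter on low counts, edgeR called 1 member lower (Adamts1) and 0 higher, where the background was 0.488% lower and 0.019% higher. The circulating libraries all lay below the muscle libraries for 9 members and all above them for 8, where the background was 11.4% below and 16.2% above. The median log2 fold change, circulating minus muscle, was -0.11 over the 48 members and 0.15 over all genes tested.

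**Figure D1:**
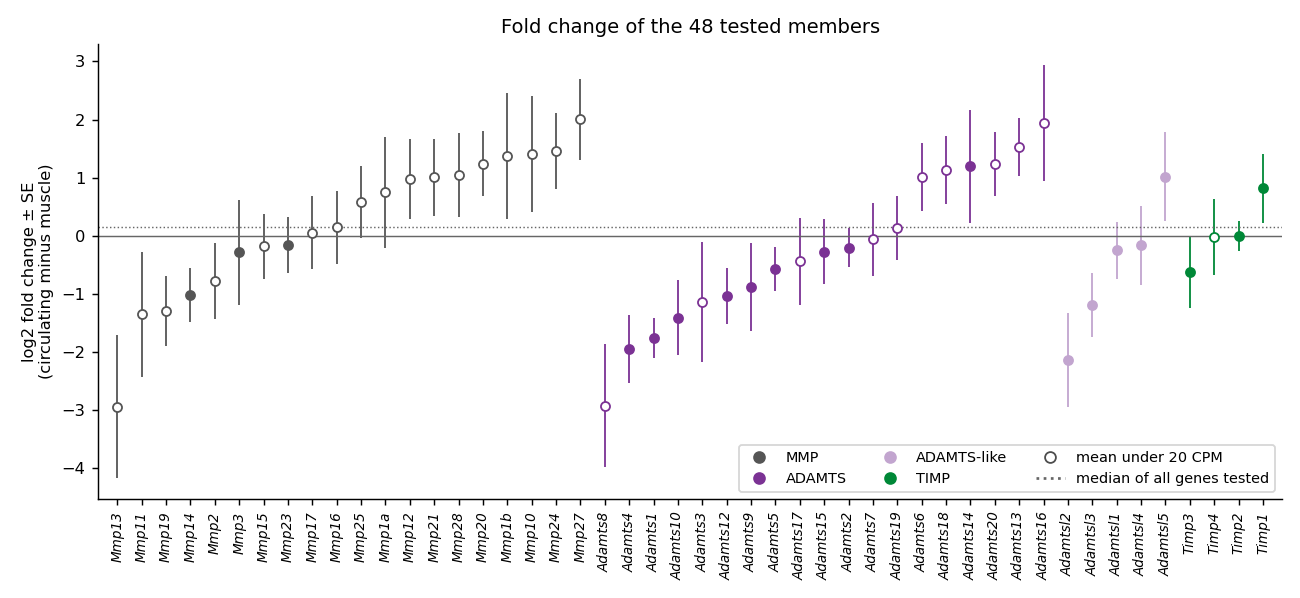
Log2 fold change (circulating minus muscle, y axis) with its standard error for each of the 48 tested members (x axis), by family; open symbols have a mean under 20 CPM, and the dotted line is the median of all genes tested, 0.15. The filled ADAMTS, ADAMTS-like and MMP symbols lie mostly below 0, the open MMP and ADAMTS symbols lie on both sides, and Timp2 lies at 0.

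The sign of the fold change varied with abundance. Of the 20 members with a mean of at least 20 CPM, 17 had a negative log2 fold change. That was 85.0%, against 78.3% of 4736 genes of that abundance. Of these 20 members, 7 had no overlap between the groups on the lower side (35.0%, against 28.8%). Other measures went the other way. The median of these 20 members was -0.43, against -0.65 for all genes of that abundance. At an unadjusted edgeR p under 0.05, 3 of the 20 were lower, against 21.8% of all genes of that abundance. Of 11 tested members under 2 CPM, 9 had a positive and 2 a negative log2 fold change (18.2% negative, against 18.2% of all 6540 genes under 2 CPM). The median was 1.0 for these members and 0.77 for all genes under 2 CPM. Of the 17 members from 2 to under 20 CPM, 29.4% were higher and 11.8% lower without overlap, against 16.8% and 9.73% of all genes in that range. Below, values in a group are listed for replicates 1, 2 and 3 in that order, and fold changes are log2, circulating minus muscle, with their standard error.

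**Figure D2:**
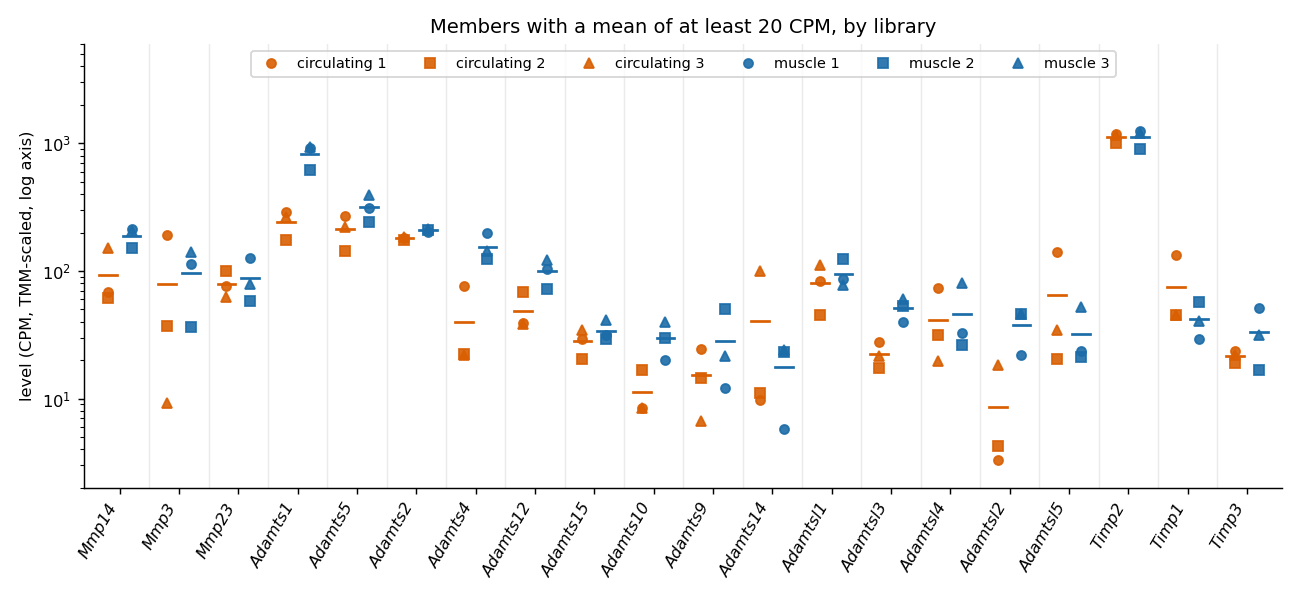
Level in CPM (log axis) of the 20 members with a mean of at least 20 CPM, with 1 symbol per library, circulating left of muscle for each gene and a bar at the mean of 3. Timp2 lies between 911 and 1249 CPM in all 6 libraries, Adamts1 and Adamts4 have no overlap between the groups, and Mmp3, Adamts14 and Adamtsl5 are spread widely within the circulating group.

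Of the TIMPs, Timp2 differed between the groups by less than its spread within them on the TMM scale, and no TIMP passed the test. Timp2, which blocks MMPs and also forms the surface complex in which Mmp14 activates Mmp2, was at 1179, 1011 and 1157 CPM in circulating FAPs, against 1249, 911 and 1211 CPM in muscle FAPs. The groups overlapped, and the fold change was -0.01 ± 0.26 (edgeR adjusted p = 0.987). With TMM factors from abundant genes only, the fold change of Timp2 was 0.72 ± 0.21 (edgeR adjusted p = 0.0882), where the all-gene median was 0.85. Per kilobase of exon Timp2 ranked first of the 50 members in both groups, at 286 CPM per kilobase in circulating and 288 in muscle FAPs.

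Timp1, a secreted inhibitor with broad reach over MMPs, was at 134, 45.2 and 44.8 CPM in circulating FAPs, against 29.6, 57.3 and 40.4 CPM in muscle FAPs. Circulating replicate 1 stood above the other 5 libraries, which overlapped, and the fold change was 0.82 ± 0.60 (edgeR adjusted p = 0.445), or 0.02 without that library. Timp3, which binds the matrix and inhibits several ADAMTS enzymes besides MMPs, was at 23.4, 19 and 22.1 CPM in circulating FAPs, against 51.4, 16.9 and 31.4 CPM in muscle FAPs. The circulating libraries lay within the range of the muscle libraries, and the fold change was -0.63 ± 0.62 (edgeR adjusted p = 0.570). Of the exon bases of Timp3, 21.3% are shared with the synapsin gene Syn3 in the GENCODE M21 annotation, and reads there could not be assigned without strand. Timp4 was low, at 1.75, 5.99 and 4.83 CPM in circulating FAPs, against 2.39, 6.55 and 3.72 CPM in muscle FAPs, with fold change -0.02 ± 0.65. The signs of Timp2, Timp3 and Timp4 turned with the scaling, and that of Timp1 was positive under each scaling tried.

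The ADAMTS enzymes that cut the large proteoglycans aggrecan and versican included Adamts1 and Adamts4, both lower with DESeq2. Of 7 tested, 6 had a negative fold change, with a median of -0.88, or -0.29 with TMM factors from abundant genes only, where 4 of 7 were negative. Adamts1, Adamts4, Adamts5, Adamts9 and Adamts15 had a mean of at least 20 CPM. Of all genes of that abundance 78.3% were negative, with a median of -0.65. Adamts1, an enzyme that cleaves versican and aggrecan and restrains vessel growth, was at 290.2, 174 and 267 CPM in circulating FAPs, against 926, 614 and 936 CPM in muscle FAPs. Every circulating library lay below every muscle library, with a wide gap between the groups. Its fold change was -1.76 ± 0.34 (edgeR adjusted p = 0.0884; 0.0333 to 0.273 over the other edgeR settings), and it passed with DESeq2 (adjusted p = 0.0127). With DESeq2 it no longer passed without circulating replicate 2 (adjusted p = 0.0602), muscle replicate 1 (0.0709) or muscle replicate 3 (0.0742), nor with size factors from abundant genes (0.163). Per kilobase Adamts1 had rank 3 of the 50 members in circulating FAPs and rank 2 in muscle FAPs, at 46 CPM per kilobase in circulating and 156 in muscle FAPs.

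The promoter window of Adamts1 is shown because this gene had the smallest p of the members. It is the RefSeq window of GRCm38.p6, chr16:85803064-85803363 on the minus strand, which runs 250 bases before to 50 after the annotated start. Capitals mark the motif TATAAA (or TTTATA on the other strand), which begins 32 bases before the start and which 13.6% of all 32851 windows hold. The AP-1 motif TGANTCA, which reads the same on both strands, is not in this window.
Adamts1: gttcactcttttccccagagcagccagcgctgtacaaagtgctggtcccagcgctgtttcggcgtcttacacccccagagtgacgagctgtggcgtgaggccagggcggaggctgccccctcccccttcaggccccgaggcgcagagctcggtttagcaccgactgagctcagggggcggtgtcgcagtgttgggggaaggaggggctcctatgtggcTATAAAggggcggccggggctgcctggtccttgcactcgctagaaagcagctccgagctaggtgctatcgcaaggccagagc

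Adamts4, an aggrecanase, was at 76.2, 22.4 and 22 CPM in circulating FAPs, against 199, 124 and 142 CPM in muscle FAPs. The groups did not overlap, and circulating replicate 1 stood well above the other 2 circulating libraries. The fold change was -1.95 ± 0.59 (edgeR adjusted p = 0.171; 0.0564 to 0.313 over the other edgeR settings), and it passed with DESeq2 (adjusted p = 0.0298). Of the 6 libraries left out in turn it passed with DESeq2 only without circulating replicate 1 (adjusted p = 0.000305), and the adjusted p was 0.0581 to 0.115 without any of the other 5 libraries.

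Adamts5, the other main aggrecanase, was at 271, 142 and 223 CPM in circulating FAPs, against 312, 240.1 and 396 CPM in muscle FAPs. The groups overlapped, with fold change -0.58 ± 0.38 (edgeR adjusted p = 0.405), and its sign turned with upper quartile scaling and with factors from abundant genes. Adamts15, another versicanase, was at 29.5, 20.5 and 34.4 CPM in circulating FAPs, against 31.4, 29.2 and 41.5 CPM in muscle FAPs, with overlap and fold change -0.27 ± 0.56. Adamts9, which also cleaves versican, overlapped too (fold change -0.88 ± 0.76). Adamts9 ranged from 6.70 to 24.4 CPM in circulating and from 12.1 to 50.3 CPM in muscle FAPs, and 12.0% of its exon bases are shared with other genes. Adamts8 was at 2.12, 1.33 and 1.32 CPM in circulating FAPs, against 2.63, 2.13 and 31.8 CPM in muscle FAPs, so its fold change of -2.92 ± 1.06 rested on muscle replicate 3 and was -0.62 without it. Adamts20, a versicanase of embryonic skin, was at 8.98, 6.65 and 6.04 CPM in circulating FAPs, against 2.87, 3.10 and 3.23 CPM in muscle FAPs, higher without overlap (fold change 1.24 ± 0.55, edgeR adjusted p = 0.252), at 1.40 to 2.08 times background in circulating FAPs and 1.20 to 1.66 times in muscle FAPs.

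The procollagen N-proteinases remove the amino-terminal propeptide of fibrillar procollagens. Adamts2, the main such enzyme, was among the steadiest members, at 179.9, 174 and 186 CPM in circulating FAPs, against 201, 208 and 214 CPM in muscle FAPs. Every circulating library was below every muscle library, but by little: the fold change was -0.21 ± 0.34 (edgeR adjusted p = 0.741), and it was 0.51 with factors from abundant genes. Adamts14 was at 9.71, 11 and 100.4 CPM in circulating FAPs, against 5.79, 23 and 23.9 CPM in muscle FAPs, with the highest value in circulating replicate 3 and overlap among the rest. Its fold change of 1.20 ± 0.97 became -0.87 without that library. Adamts3, which also processes the lymphatic growth factor Vegfc, was at 3.14, 5.46 and 5.27 CPM in circulating FAPs, against 1.37, 26.9 and 2.15 CPM in muscle FAPs, and its fold change of -1.13 ± 1.03 became 1.32 without muscle replicate 2.

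Of the other 9 ADAMTS genes 4 had a negative fold change (44.4%, against 45.5% of all genes tested). Adamts12, which cleaves the cartilage matrix protein Comp, was at 38.9, 68.1 and 38.7 CPM in circulating FAPs, against 104, 72 and 123 CPM in muscle FAPs. The groups were apart by a narrow gap, between replicate 2 of each (fold change -1.04 ± 0.49, edgeR adjusted p = 0.273). Adamts10, which acts on fibrillin microfibrils, was at 8.46, 16.8 and 8.46 CPM in circulating FAPs, against 20.3, 29.7 and 39.7 CPM in muscle FAPs, again without overlap (fold change -1.41 ± 0.65, edgeR adjusted p = 0.262).

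The lower signs of Adamts10 and Adamts12 held under each scaling tried, as did those of Adamts1 and Adamts4. Adamts16 was at 6.42, 6.39 and 47.5 CPM in circulating FAPs, against 1.31, 5.43 and 8.95 CPM in muscle FAPs, with 1 library, circulating replicate 3, above all others. Its fold change of 1.94 ± 1.01 became 0.18 without that library. Adamts13, which cuts von Willebrand factor and is made mainly in liver, was at 3.65, 2.13 and 2.96 CPM in circulating FAPs, against 0.896, 1.02 and 1.12 CPM in muscle FAPs (fold change 1.52 ± 0.50, edgeR adjusted p = 0.181). It was higher without overlap, at 0.817 to 1.55 times background in circulating FAPs and 0.687 to 1.05 times in muscle FAPs. Adamts6 (fold change 1.02 ± 0.58) and Adamts18 (1.13 ± 0.59) were likewise higher without overlap and at most 2.08 times background in any library, and Adamts17 (-0.44 ± 0.74) overlapped.

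The ADAMTS-like genes encode matrix proteins without enzyme activity, several of which bind fibrillin. Of 5 tested, 4 had a negative fold change, with a median of -0.25, or 0.40 with factors from abundant genes, where 2 of 5 were negative. All 5 had a mean of at least 20 CPM, and of all genes of that abundance 78.3% were negative, with a median of -0.65. Adamtsl2, which binds fibrillin and a latent TGF-beta binding protein in human cells, was at 3.28, 4.26 and 18.3 CPM in circulating FAPs, against 22, 46.3 and 45.8 CPM in muscle FAPs. All circulating libraries were below all muscle libraries, with circulating replicate 3 close to muscle replicate 1. The fold change was -2.14 ± 0.81 (edgeR adjusted p = 0.210; DESeq2 adjusted p = 0.0497), and with DESeq2 it passed only without circulating replicate 3 or muscle replicate 1 among the 6 libraries left out in turn, and the adjusted p was 0.110 to 0.152 without any other.

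Adamtsl3 was at 28, 17.3 and 21.7 CPM in circulating FAPs, against 39.6, 53.3 and 60.4 CPM in muscle FAPs, without overlap (fold change -1.19 ± 0.55, edgeR adjusted p = 0.264). Adamtsl1 was at 84.2, 45.1 and 111 CPM in circulating FAPs, against 86.3, 123 and 77.3 CPM in muscle FAPs and overlapped (fold change -0.25 ± 0.49). Adamtsl4, which binds fibrillin, was at 73.1, 31.5 and 19.8 CPM in circulating FAPs, against 32.5, 26.1 and 80.6 CPM in muscle FAPs, again with overlap (fold change -0.16 ± 0.68). Adamtsl5 was at 141, 20.5 and 34.7 CPM in circulating FAPs, against 23.4, 21.1 and 52.1 CPM in muscle FAPs, with circulating replicate 1 above the rest. Its fold change of 1.02 ± 0.76 became -0.29 without circulating replicate 1, the library that was also high for Timp1 and Mmp3.

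Among membrane-bound MMPs, Mmp14, the membrane-type collagenase that activates Mmp2, had rank 8 of the 50 members per kilobase in circulating FAPs and rank 7 in muscle FAPs. Its level was 68.3, 61.5 and 151 CPM in circulating FAPs, against 212, 151 and 206 CPM in muscle FAPs. Circulating replicates 1 and 2 were below all muscle libraries, and circulating replicate 3 was level with muscle replicate 2. The fold change was -1.02 ± 0.46 (edgeR adjusted p = 0.260), -1.66 without circulating replicate 3, and negative under each scaling tried.

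Mmp23, a small membrane-anchored MMP that is released by furin-like cleavage, was at 76.5, 99.3 and 62.4 CPM in circulating FAPs, against 127, 58.5 and 79.7 CPM in muscle FAPs, with overlap and fold change -0.15 ± 0.48. Mmp16, another membrane-type MMP, ranged from 3.94 to 10.7 CPM in circulating and from 5.04 to 7.67 CPM in muscle FAPs (fold change 0.15 ± 0.63). Mmp24, a membrane-type MMP known from nerve tissue, had 8 to 18 reads per circulating and 6 to 12 per muscle library. On the CPM scale it was at 0.876, 1.06 and 1.98 in circulating and 0.358, 0.457 and 0.587 in muscle FAPs (fold change 1.45 ± 0.65, edgeR adjusted p = 0.258), below background in every library.

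Of the secreted MMPs, Mmp2, the gelatinase A of fibroblasts, was at 12.3, 9.58 and 18.8 CPM in circulating FAPs, against 17.7, 17 and 35.2 CPM in muscle FAPs. The groups overlapped (fold change -0.78 ± 0.65, edgeR adjusted p = 0.498). Mmp9, the gelatinase B of neutrophils and macrophages, did not pass the filter on low counts. It had 12, 2 and 6 reads in circulating and 0, 64 and 12 reads in muscle FAPs. The 0 in muscle replicate 1 allows up to 3 counts, or 0.179 CPM.

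Mmp3, the stromelysin that cuts proteoglycans and activates other MMPs, had rank 4 of the 50 members per kilobase in circulating FAPs and rank 3 in muscle FAPs. Its level differed more within the circulating group than between groups, at 192, 37.3 and 9.22 CPM in circulating FAPs, against 113, 36.7 and 141 CPM in muscle FAPs. Circulating replicate 1 was the highest of all 6 libraries and circulating replicate 3 the lowest, and the fold change was -0.29 ± 0.91 (edgeR adjusted p = 0.869). Leaving out circulating replicate 3 turned the value to 0.11, and leaving out circulating replicate 1 gave -2.13. The collagenase Mmp13 was at 2.04, 2.79 and 1.98 CPM in circulating FAPs, against 1.49, 48.7 and 2.25 CPM in muscle FAPs, present well above the rest in muscle replicate 2 alone. Its fold change of -2.94 ± 1.23 became 0.21 without that library.

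Mmp3 and Mmp13 lie in a cluster of MMP genes on chromosome 9. Of 35 members with a RefSeq promoter window, 8 had the AP-1 motif TGANTCA in at least 1 window (8 of 38 windows, against 7.81% of all 32851 windows), and all 8 are in that cluster: Mmp1a, Mmp1b, Mmp3, Mmp7, Mmp10, Mmp12, Mmp13 and Mmp20. The windows of Mmp3 (chr9:7445572-7445871, plus strand, GRCm38.p6) and Mmp13 (chr9:7272264-7272563, plus strand, GRCm38.p6) are shown because these 2 of the set passed 20 CPM in a library, each with its highest level in a different one. Capitals mark TGANTCA, which begins 46 bases before the annotated start in Mmp3 and 35 bases before it in Mmp13, and TATAAA, which begins 7 and 16 bases before it.
Mmp3: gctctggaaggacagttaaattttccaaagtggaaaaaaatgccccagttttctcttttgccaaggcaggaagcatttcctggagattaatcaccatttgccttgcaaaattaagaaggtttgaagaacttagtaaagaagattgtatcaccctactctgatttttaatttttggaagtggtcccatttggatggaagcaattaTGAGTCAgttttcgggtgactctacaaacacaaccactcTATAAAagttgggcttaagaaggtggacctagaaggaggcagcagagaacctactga
Mmp13: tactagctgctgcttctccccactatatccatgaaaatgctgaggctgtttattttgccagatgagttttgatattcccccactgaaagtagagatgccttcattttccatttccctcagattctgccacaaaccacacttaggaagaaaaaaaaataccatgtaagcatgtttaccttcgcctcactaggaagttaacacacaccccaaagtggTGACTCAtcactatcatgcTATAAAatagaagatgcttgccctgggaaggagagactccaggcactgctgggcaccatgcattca
The other 6 genes with the motif stayed at or below 9.58 CPM in every library. A match describes these letters only and does not show that a factor binds there.

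Mmp11, the stromelysin that is activated inside the cell, was at 1.68, 9.58 and 0.439 CPM in circulating FAPs, against 9.74, 1.93 and 17.9 CPM in muscle FAPs, with fold change -1.35 ± 1.08 and -3.30 without circulating replicate 2. Mmp19, a secreted MMP, was at 2.85, 2.79 and 4.06 CPM in circulating FAPs, against 10.3, 4.62 and 8.95 CPM in muscle FAPs, without overlap (fold change -1.30 ± 0.60, edgeR adjusted p = 0.266). Of its exon bases 28.3% are shared with Tmem198b and Gm47093. Mmp27 was at 12.3, 2.53 and 3.29 CPM in circulating FAPs, against 1.73, 1.52 and 1.27 CPM in muscle FAPs, higher without overlap (fold change 2.0 ± 0.70, edgeR adjusted p = 0.195). Circulating replicate 1 carried most of that difference, and without it the fold change was 0.88. Mmp12, the macrophage elastase, ranged from 1.98 to 9.58 CPM in circulating and from 2.10 to 4.06 CPM in muscle FAPs (fold change 0.98 ± 0.68). Mmp20, the enamel proteinase, was at 5.40, 6.39 and 3.62 CPM in circulating FAPs, against 2.45, 2.79 and 1.27 CPM in muscle FAPs (fold change 1.24 ± 0.56, edgeR adjusted p = 0.260), at 2.60 to 3.67 times background in circulating FAPs and 1.78 to 2.99 times in muscle FAPs.

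The remaining members were Mmp1a, Mmp1b, Mmp7, Mmp9, Mmp10, Mmp15, Mmp17, Mmp21, Mmp25, Mmp28, Adamts7 and Adamts19. Each had at most 6.14 CPM in any library. Mmp12 and Mmp1b share exon bases, so reads there are uncertain. Mmp25, a neutrophil MMP, was at 1.24, 1.60 and 2.64 CPM in circulating FAPs, against 0.597, 0.914 and 2.10 CPM in muscle FAPs. Mmp8, the neutrophil gene kept apart from the members, was at 1.31, 3.73 and 1.43 CPM in circulating and 3.41, 0.863 and 0.782 CPM in muscle FAPs. The neutrophil genes S100a8, at 6.42, 4.39 and 61.4 CPM, and S100a9, at 69.8, 2.53 and 1.87 CPM in circulating FAPs, were high in different circulating libraries.

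The members split into those well above the reads on silent genes and those near them. Per kilobase of exon, 22 of 50 members stayed under 10 times the background of their library in every library, a limit chosen after the values were seen. The background itself was higher in every circulating library than in any muscle library on the same scale. All 4 members that were higher at an unadjusted p under 0.05 (Adamts13, Adamts20, Mmp24 and Mmp27) had at most 2.08 times background in circulating libraries, except Mmp27, at 2.16 to 11.6 times.

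**Figure D3:**
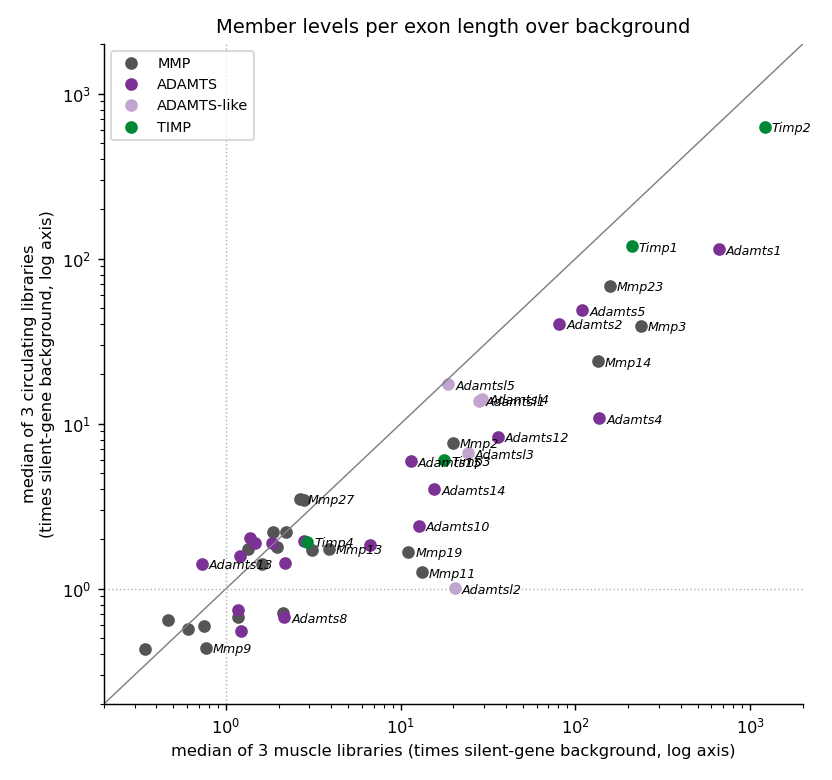
Level per kilobase of exon as a multiple of the background on silent sensory receptor genes, as the median of 3 circulating libraries (y axis) against the median of 3 muscle libraries (x axis), both log axes, with 1 point per member and the diagonal as equality. Each level is divided by the background of its own library, which is higher in circulating libraries, so a gene at equal levels falls below the diagonal: Timp2, at 286 CPM per kilobase in circulating and 288 in muscle FAPs, lies at 632 times in circulating and 1209.9 times in muscle FAPs. A group of members lies around 1 in both.

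Several members were high in a single library. In circulating FAPs 4 of 48 members had at least 75% of the group's summed level in 1 library, a limit chosen after the values were seen: Adamts14 and Adamts16 in replicate 3, Mmp3 in replicate 1 and Mmp11 in replicate 2. Of all genes tested 6.13% did so. In muscle FAPs there were 3, Mmp13 and Adamts3 in replicate 2 and Adamts8 in replicate 3, and 5.94% of all genes. The shares of the members, 8.33% and 6.25%, were near those of all genes.

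Ratios between members within a library do not depend on the scaling between libraries. They count reads without correcting for length and are given as descriptions without a test, and the pairs were chosen after the values were seen. The summed CPM of the 4 TIMPs over that of the 22 MMPs was 3.38, 4.03 and 4.33 in circulating FAPs and 2.60, 2.82 and 2.52 in muscle FAPs. The TIMP sum over the sum of the 19 ADAMTS was 1.37, 1.57 and 1.26 in circulating FAPs and 0.725, 0.684 and 0.640 in muscle FAPs. Both ratios were higher in every circulating library than in any muscle library.

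Timp2 made up 91.7% of the TIMP sum in circulating and 93.4% in muscle FAPs, and Adamts1 27.6% of the ADAMTS sum in circulating and 46.8% in muscle FAPs, so these ratios mainly set Timp2 against a few enzymes. Timp3, the TIMP named above for ADAMTS enzymes, was a small part of the TIMP sum. The TIMP to ADAMTS ratio is thus no measure of ADAMTS inhibition. The ADAMTS sum was 882 ± 166 CPM in circulating FAPs, against 1765 ± 286 CPM in muscle FAPs (SD, n = 3 each), and the MMP sum was 316 ± 69.9 CPM in circulating FAPs, against 458 ± 91.7 CPM in muscle FAPs. The TIMP sum was 1216 ± 129 CPM in circulating FAPs, against 1203 ± 185 CPM in muscle FAPs. Mmp14 over its partner Timp2 was 0.0579, 0.0608 and 0.130 in circulating FAPs, against 0.170, 0.165 and 0.170 in muscle FAPs. Adamts1 over Adamts5 was 1.07, 1.23 and 1.20 in circulating FAPs, against 2.97, 2.56 and 2.37 in muscle FAPs. Both of these ratios were lower in every circulating library than in any muscle library. Mmp2 over Mmp14 overlapped between the groups, at 0.181, 0.156 and 0.124 in circulating FAPs, against 0.0836, 0.113 and 0.171 in muscle FAPs.

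**Figure D4:**
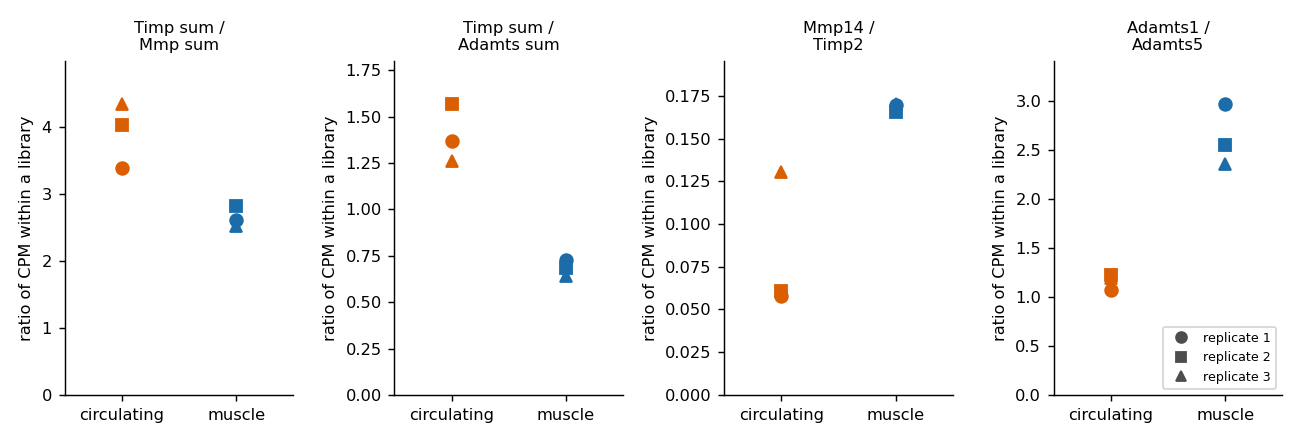
Ratios of CPM within a library for the 3 circulating (left) and 3 muscle (right) libraries of each panel, with 1 symbol per replicate and the y axis from 0. The TIMP ratios are higher in circulating FAPs (3.38 to 4.33 over MMPs and 1.26 to 1.57 over ADAMTS), and Mmp14 over Timp2 and Adamts1 over Adamts5 are lower, with no overlap in any of the 4 panels. The ratio of Mmp2 to Mmp14, which overlaps, is not drawn.

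The genes around these families were described from 3 lists. For their counts, the shares over all genes were 9.64% lower and 9.71% higher at an unadjusted p under 0.05 and 5.32% of all 20248 lower with DESeq2, and among genes of at least 20 CPM 21.8% were lower at that p and 11.4% with DESeq2. Of 26 activators, inhibitors and clearance genes, 1 was lower over all genes (Cst3) and 0 higher with edgeR. With DESeq2 2 were lower (7.69%), and at an unadjusted p under 0.05, 7 were lower (26.9%) and 2 higher. Cst3, the cysteine proteinase inhibitor cystatin C, fell to 674 ± 98.6 CPM in circulating FAPs, against 2527 ± 380.2 CPM in muscle FAPs (SD, n = 3 each; fold change -1.91 ± 0.26, edgeR adjusted p = 0.0341). It did not pass with factors from abundant genes (-1.20, edgeR adjusted p = 0.0738). It passed without circulating replicate 1, and not without any 1 of the other 5 libraries or with upper quartile scaling. Plau, the urokinase that starts a plasmin cascade able to activate MMPs, had fold change -1.07 ± 0.47 (edgeR adjusted p = 0.248). Also with an unadjusted p under 0.05 were the serpins Serpine2 (-0.68 ± 0.29), Serpinf1 (-0.81 ± 0.34) and the collagen chaperone Serpinh1 (-0.77 ± 0.31). The list's median was -0.47, or 0.24 with factors from abundant genes, where the sign of Serpine2 turned.

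Of 22 other matrix proteinases and their enhancers, 0 passed with edgeR and 2 were lower with DESeq2 (9.09%), and at an unadjusted p under 0.05 6 were lower (27.3%) and 1 higher. Adam9, a membrane proteinase, was at 12.7 ± 9.51 CPM in circulating FAPs, against 102 ± 17.2 CPM in muscle FAPs (SD, n = 3 each; fold change -3.0 ± 0.73, edgeR adjusted p = 0.131; DESeq2 adjusted p = 0.00145). Bmp1, the procollagen C-proteinase, had fold change -0.95 ± 0.37 and its enhancer Pcolce -0.83 ± 0.30. The sheddases Adam10 (-1.30 ± 0.58) and Adam19 (-1.29 ± 0.57) completed the 5 with the highest mean CPM among those with an unadjusted p under 0.05. The list's median was -0.10, or 0.61 with factors from abundant genes. Of 22 tested matrix substrates, 0 passed with edgeR and 6 were lower with DESeq2 (27.3%), and at an unadjusted p under 0.05 9 were lower (40.9%) and 1 higher.

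The substrates named by the same rule were the proteoglycan Dcn (-1.19 ± 0.25), the fibrillar collagen chains Col3a1 (-1.49 ± 0.24), Col1a2 (-1.05 ± 0.21) and Col1a1 (-1.38 ± 0.21), and the proteoglycan Bgn (-1.39 ± 0.27), none of which passed with edgeR (adjusted p = 0.0525 to 0.0962). Vcan, which encodes versican and is a substrate of Adamts1, Adamts4 and Adamts5, had fold change -0.89 ± 0.44 (edgeR adjusted p = 0.294) and was named for that role after its values were seen. The median of the substrates was -0.76, or -0.07 with factors from abundant genes. The lower signs of the 5 proteinases and of the 5 substrates named by abundance held under each scaling tried.

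The sign of many members depended on the scaling. The all-gene median shifted by 0.70 under TMM factors from abundant genes. It shifted by 0.67 when the upper quartile set the scale, by 0.15 with library totals and by -0.10 with RLE size factors. Over these scalings, TMMwsp and DESeq2, 14 of 48 tested members were negative throughout, 20 positive throughout and 14 changed sign. The same count over all genes was not made. With factors from abundant genes, where the all-gene median shifted most, 29.2% of the members and 26.3% of all genes were negative. RLE and DESeq2 scale almost alike, and a new scaling moves all genes by nearly the same amount, so the settings are not separate checks. Of the 20 members of at least 20 CPM, 8 were negative throughout: Adamts1, Adamts4, Adamts9, Adamts10, Adamts12, Adamtsl2, Adamtsl3 and Mmp14. Relative to the median of all genes tested, Adamts1 was at -1.91 with TMM and -1.89 with factors from abundant genes, Adamts4 at -2.10 and -2.15, and Timp2 at -0.16 and -0.13. Since a new scaling moves all genes nearly alike, the values in each pair had to be close and are no check on these genes. The median used is over genes of all levels, at 0.15 with TMM. For genes of at least 20 CPM, to which these genes belong, it was -0.65.

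**Figure D5:**
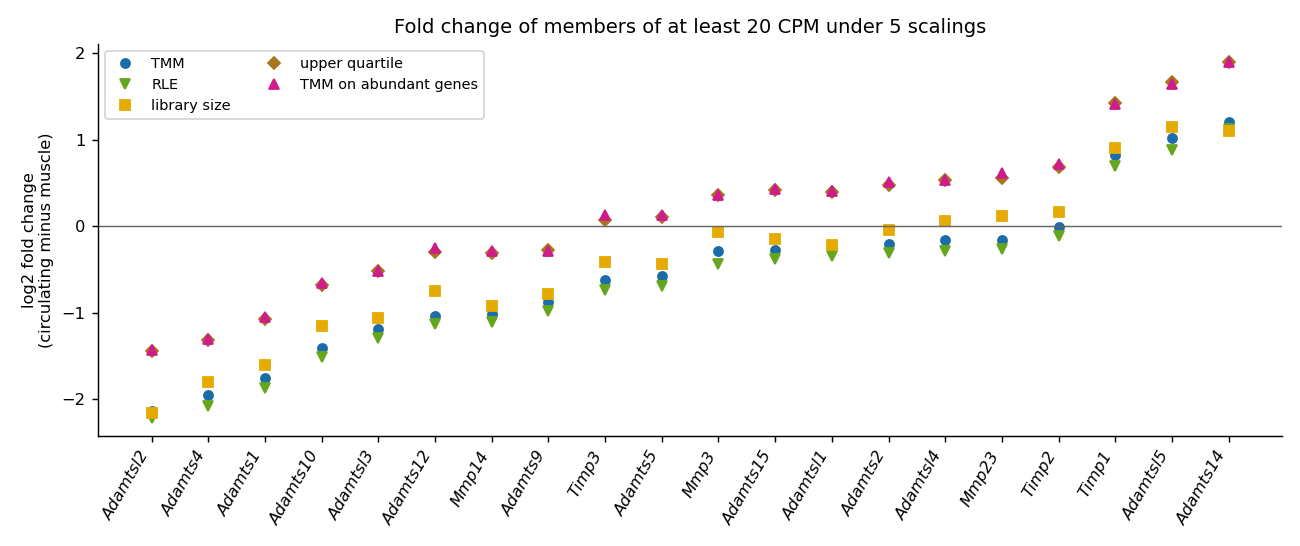
Log2 fold change (circulating minus muscle, y axis) of the 20 members of at least 20 CPM (x axis) under 5 scalings. TMM, RLE and library size lie together and upper quartile and TMM on abundant genes lie higher, so that Timp2 moves between -0.11 and 0.72 while Adamts1 and Adamts4 stay below -1.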

How the data were processed

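Extraction in RLT plus buffer and library preparation with the TruePrep V2 kit are stated in the labels' protocols. The authors deposited raw read counts for each gene symbol in 1 column per library. Trim Galore, STAR, featureCounts and the build GRCm39 are named, per the submitters' processing notes; versions, strand setting and annotation were not given in the sources used here. Titles gave the groups, with 3 libraries each. The labels do not tie libraries to separate mice: the spread behind each p-value is that between libraries and may be technical.

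Counts were fitted in R 4.3.3 with edgeR 4.0.16 (robust quasi-likelihood test, TMM scaling, filterByExpr filter, Benjamini-Hochberg adjustment over all genes, threshold 0.05). DESeq2 1.42.0 was run on the same genes. The standard error is the fold change over the square root of the F statistic. The fits were tested on simulated counts, where both tools made false calls above the nominal rate, DESeq2 by far more than edgeR. Except at the largest size of change simulated, edgeR missed most of the changes. Exon lengths for levels per kilobase came from GENCODE M21 (GRCm38), matched by symbol for 91.2% of genes and for all 50 members, and 379 of 409 silent receptor genes had one. Promoters came from RefSeq on GRCm38.p6, where 35 members matched. Sequences and exon overlaps of that build were used with counts made on GRCm39.

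The members and lists were chosen with earlier results of these data known. Named were members past the threshold with edgeR or DESeq2, those with an unadjusted edgeR p under 0.05 or a mean of at least 5 CPM in either group, and all TIMPs. Of each pathway list the rule named genes past the threshold, or up to 5 with the highest mean among those with an unadjusted p under 0.05. A gene so named is not reported here. The alternatives were other scalings, no filter, other tools, leaving out the 18S rows or 1 library, and a replicate block.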

Additional observations from a re-analysis of the deposited data

How the results depend on the processing

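The smallest library held 5522193 counts, and each group had 3 libraries. No member was called lower or higher by edgeR under any scaling, without robust fitting, without 18S rows, with a replicate block or without any 1 library; without the filter Adamts1 was called, so members lower numbered 1. DESeq2 called 3 lower, and 1 to 3 without 1 library, not always the same genes. It then also called Adamts8 (without replicate 1 of either group or replicate 2 of muscle), Mmp13 (without muscle replicate 1 or 3), and Adamts10 and Mmp11 (without circulating replicate 2). The share of all genes called was not computed for the DESeq2 runs without 1 library, so these member counts have no background beside them. DESeq2 called, with size factors from abundant genes, 0 lower and 6 higher (Adamts13, Mmp20, Adamts20, Adamts16, Adamts18 and Mmp27). The DESeq2 runs without 1 library and with abundant genes were chosen after seeing the data. The cause of these moves was not tested. All genes called lower numbered 21, against 42 with RLE, 1 with upper quartile, 4 with abundant genes, 154 without the filter, 1078 with DESeq2 and 0 to 63 without 1 library. All genes called higher numbered 1, against 2 with library size, 3 with abundant genes, 6 without the filter, 204 with DESeq2 and 0 to 2 without 1 library. Pathway genes called lower numbered 1, against 5 with RLE, 4 with TMMwsp, 0 with upper quartile, 2 with library size, 0 with abundant genes, 10 without the filter, 10 with DESeq2, 3 without robust fitting, 4 without 18S rows and 0 to 7 without 1 library. The members' median log2 fold change was 0.60 with upper quartile and 0.63 with abundant genes. The TIMP to MMP and TIMP to ADAMTS ratios were higher in circulating FAPs without any 1 library. This had to hold, since every circulating library lay above every muscle library, and is no further check.

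Signs turned as follows, in log2 fold change. With upper quartile Adamts15 was 0.42, Adamts17 0.32, Adamts2 0.48, Adamts5 0.11, Adamtsl1 0.39, Adamtsl4 0.53, Mmp23 0.56, Mmp3 0.36, Timp2 0.68, Timp3 0.075 and Timp4 0.67. With TMM on abundant genes the same 11 were Adamts15 0.43, Adamts17 0.33, Adamts2 0.51, Adamts5 0.12, Adamtsl1 0.40, Adamtsl4 0.53, Mmp23 0.61, Mmp3 0.36, Timp2 0.72, Timp3 0.12 and Timp4 0.70. With library size Adamtsl4 was 0.056, Mmp23 0.11, Timp2 0.17 and Timp4 0.14, and without the filter Mmp16 was -0.064. Without 1 library the ranges were -0.29 to 1.5 for Adamtsl5, -0.44 to 0.39 for Timp4, -0.87 to 1.60 for Adamts14, -0.93 to 0.45 for Adamtsl4, -0.30 to 0.39 for Mmp16, -2.13 to 0.11 for Mmp3, -0.44 to 0.14 for Mmp23, -0.20 to 0.018 for Timp2, -1.69 to 1.32 for Adamts3, -3.53 to 0.21 for Mmp13 and -0.95 to 0.47 for Adamts17.

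With the replicate block, all genes called lower numbered 1, all genes called higher 0 and pathway genes called lower 0, and Adamts3 was 0.15 and Timp2 0.0013. The numbers were not taken to pair the libraries, since the deviations of same-numbered libraries correlated at -0.014, 0.054 and -0.0010 over 4736 genes.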
